A study of Mus musculus with 32 samples.

Results

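The kidney degradome of Ftsj1_DF mice was compared with that of WT mice, gene by gene, over all 55289 named genes of the kidney comparison, out of 276445 gene entries in the 5 organ tables of the series. The kidney libraries came from 6 of the 32 samples, namely 3 Ftsj1_DF and 3 WT male mice aged 4 months that had received no special treatment. Ftsj1_DF is the label of the Ftsj1-deficient genotype, and the labels do not say which allele it stands for. The material was whole kidney, and the mice formed 2 sets of brothers, with 2 Ftsj1_DF and 2 WT mice in the larger set and 1 of each genotype in the other. All 6 libraries carry the same batch label.

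Ftsj1 is an X-linked gene for a methyltransferase that places 2'-O-methyl groups in the anticodon loop of certain tRNAs, and loss of the human gene causes X-linked intellectual disability. Degradome sequencing counts short tags from the 5' ends of polyadenylated RNA that carries no cap. For a transcript made with a cap, such an end marks a molecule that was decapped or cut, so a tag count is not a count of intact mRNA. The kidney filters blood in glomeruli lined by podocytes and recovers solutes along the proximal tubule, the loop of Henle, the distal tubule and the collecting duct.

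The labelled organ fitted its marker genes. Umod, which encodes the uromodulin of the loop of Henle, had a mean normalized count of 26717 in the authors' deposited kidney table, against 21.3 to 82.2 in the other 4 deposited tables. Markers of the proximal tubule (Slc34a1, Lrp2, Kap, Slc22a6), of the loop, distal tubule and collecting duct (Slc12a1, Slc12a3, Aqp2) and of podocytes (Nphs1) were also highest in kidney in the authors' deposited tables. None of these kidney markers passed the test between genotypes, with adjusted p of 0.373 or more. Whole organs were sampled, so fewer cells of a type and less RNA per cell cannot be told apart in any result below.

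The authors' deposited table gives a mean over the 6 libraries, a log2 fold change and its test for each gene, and no value per library. Values per library were recovered here from the deposited means. A gene seen by 1 read has a mean fixed by the size factor of the library that holds the read, so 6 such values gave the 6 size factors. The whole-number reads that add up to each other mean were then enumerated, and where several sets of reads fitted, the set whose model fit gave the deposited fold change was taken. Reads were recovered in this way for 22628 of the 23012 genes tried. The sign of their single-read genes splits the libraries into a side of higher and a side of lower fold change, but ties none to a mouse. The higher side is read as Ftsj1_DF by the sign of Ftsj1, given below. The libraries are called DF-a, DF-b, DF-c, WT-a, WT-b and WT-c. Their size factors were 1.353, 1.088 and 0.821 in the Ftsj1_DF libraries and 1.038, 1.028 and 0.806 in the WT libraries, so scaled depth differed by at most 1.68-fold. A value per library below is a recovered normalized count, that is, reads divided by the size factor.

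The targeted gene was examined first. The fold change of Ftsj1 tags in the authors' deposited table corresponds to a mean of 442 in Ftsj1_DF kidneys and 1305 in WT kidneys, a log2 fold change of -1.56 ± 0.61 (standard error). This was not past the threshold, with an adjusted p of 0.202 and, also in the authors' deposited table, an unadjusted p of 0.0109. For Ftsj1, 10 sets of reads gave the deposited mean and fit, and in 9 of them the genotypes overlapped, so its values per library could not be settled. Positive fold changes are read as higher in Ftsj1_DF because Ftsj1 is negative, although it did not pass in kidney. Its log2 fold change was also negative in the authors' other deposited tables. It was -1.72 ± 1.03 in heart, -3.17 ± 0.77 in spleen, and -2.84 ± 0.38 and -3.38 ± 0.59 in those named brain and liver. None of the 4 differences between its kidney fold change and that in another organ passed, with adjusted p of 0.443 or more. Among the 20 genes nearest to Ftsj1 on the X chromosome, 10 on each side in the RefSeq order, 7 were tested and 0 passed, with log2 fold changes of -2.17 to 0.89.

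In the kidney as a whole, 237 genes were higher and 170 lower in Ftsj1_DF at a false discovery rate of 5%, judged by adjusted p in the table the authors deposited. These 407 genes are 2.07% of the 19630 genes tested, of which 1.21% rose and 0.866% fell. At an unadjusted p under 0.05 the count was 2338 genes, or 11.9%. With each statistic divided by the robust spread of all of them, 1.15, the count past the threshold was 169. The median log2 fold change of all tested genes was -0.01, and 49.1% were above 0. Genes past the threshold had a median mean count of 141 in the authors' deposited table, against 324 over all tested genes, and their median log2 fold changes were 3.28 among rises and -3.35 among falls. The plot of fold change against mean shows these genes as the edges of a fan that narrows with abundance.

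**Figure D1:**
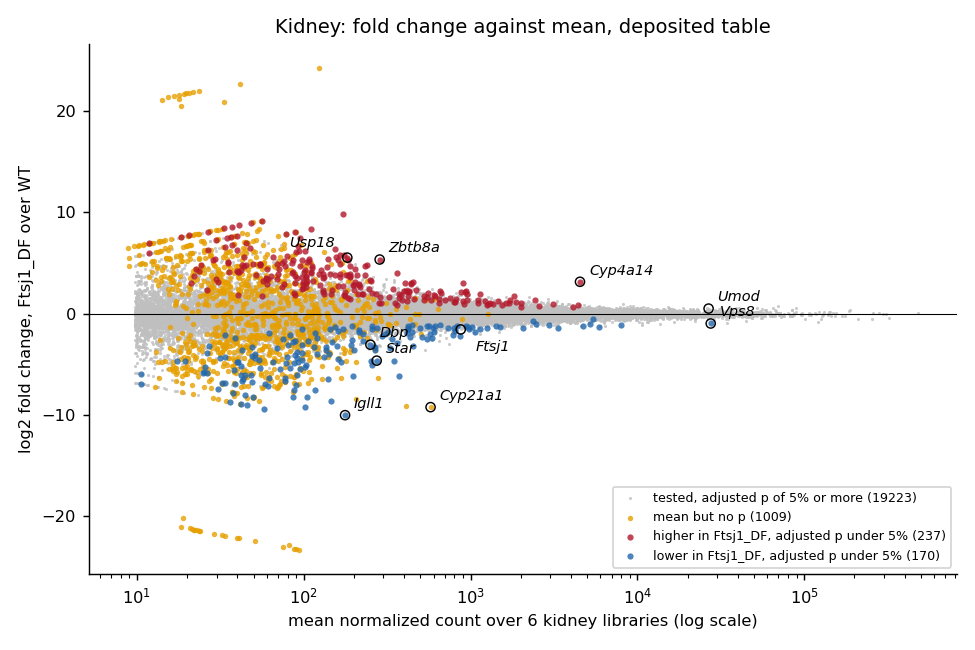
Log2 fold change of Ftsj1_DF over WT kidney (vertical axis) against the mean normalized count over 6 libraries (horizontal axis, log scale), 1 point per gene; red and blue points are the 237 higher and 170 lower genes, orange points the 1009 genes with a mean and no p, grey points the other tested genes. Ftsj1 lies at -1.56 among the grey points, and Cyp21a1 at -9.24 among the orange ones.

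The genes with the smallest adjusted p differed by large factors in every library. Zbtb8a, which encodes a zinc finger protein with a BTB domain, had normalized counts of 604, 349 and 716 in Ftsj1_DF kidneys, against 12.5, 19.4 and 8.68 in WT kidneys. Its group means were 557 ± 188 and 13.6 ± 5.45 (SD, n = 3 each), and DESeq2 gave a log2 fold change of 5.35 ± 0.54 with an adjusted p of 6.06e-19 in the authors' deposited table. The lowest Ftsj1_DF library stood far above the highest WT library.

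Prom2 encodes prominin-2, a glycoprotein of plasma membrane protrusions in epithelia. It had 309, 432 and 174 in Ftsj1_DF kidneys, against 3.85, 3.89 and 11.2 in WT kidneys (log2 fold change 5.63 ± 0.70 and adjusted p = 8.53e-12 in the authors' deposited table). Amigo2, an adhesion molecule with immunoglobulin-like domains, had 215, 779 and 396 in Ftsj1_DF kidneys, against 22.2, 15.6 and 12.4 in WT kidneys (4.79 ± 0.65, adjusted p = 9.19e-10 in the authors' deposited table). For both genes the 3 Ftsj1_DF libraries lay above all WT libraries.

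Wnk2 belongs to the WNK kinases, a family that controls cation-chloride cotransporters of the nephron. Its values were 624, 825 and 893 in Ftsj1_DF kidneys, against 64.5, 133 and 95.5 in WT kidneys, a 7.99-fold ratio of means (adjusted p = 1.75e-09 in the authors' deposited table). Adam17, the protease that sheds tumour necrosis factor from membranes, had 683, 534 and 824 in Ftsj1_DF kidneys, against 172, 146 and 129 in WT kidneys, a 4.56-fold ratio of means (adjusted p = 8.63e-08 in the authors' deposited table). In both genes the lowest Ftsj1_DF library reached at least 50% of the highest.

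Nim1k, a kinase related to the AMP-activated kinase, and Nek5, a NIMA-related kinase, were the falls with the smallest adjusted p. Nim1k had 28.8, 27.6 and 70.7 in Ftsj1_DF kidneys, against 530, 392 and 558 in WT kidneys (log2 fold change -3.56 ± 0.52, adjusted p = 3.20e-08 in the authors' deposited table). Nek5 had 15.5, 18.4 and 7.31 in Ftsj1_DF kidneys, against 447, 345 and 129 in WT kidneys (-4.47 ± 0.68, adjusted p = 1.24e-07 in the authors' deposited table). Neither gene overlapped between genotypes. The other members of the 10 were Tldc2, Usp18 and Zdhhc15, all higher in Ftsj1_DF, as the plot by library shows.

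**Figure D2:**
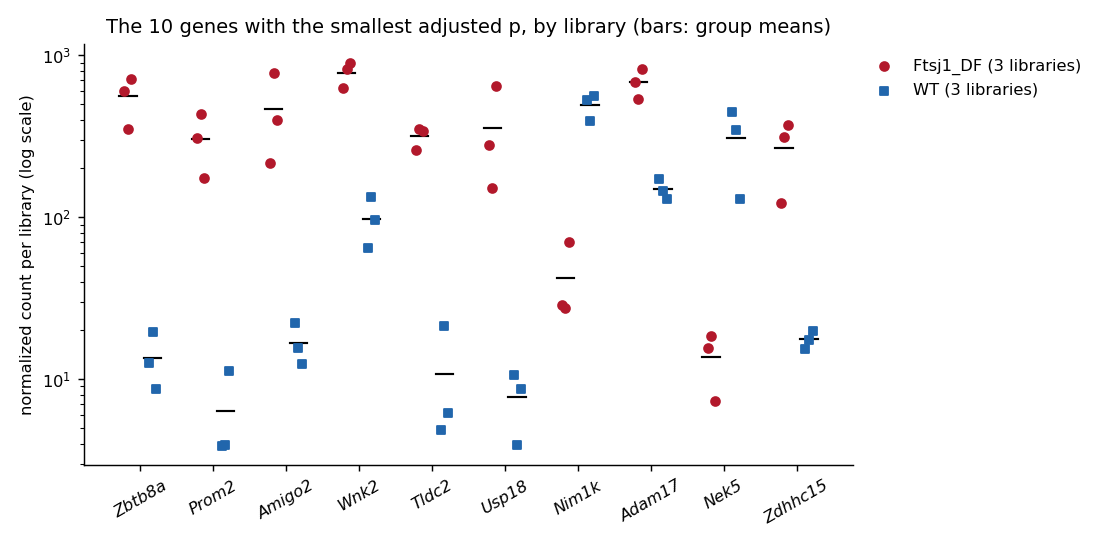
Recovered normalized counts (vertical axis, log scale) of the 10 genes with the smallest adjusted p in the kidney table, with 3 Ftsj1_DF libraries (red circles) left of 3 WT libraries (blue squares) for each gene and bars at the group means. The genotypes do not overlap in any of the 10; Nim1k and Nek5 are the 2 falls.

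Values per library were recovered for 312 of the 407 genes past the threshold, 183 rises and 129 falls; of the rest, 71 had means above 600 and 24 kept several solutions. All Ftsj1_DF libraries stood above all WT libraries in 157 of the 183 rises, and below them in 103 of the 129 falls. Over the 9346 tested genes recovered, these shares were 5.98% and 6.86%. The calls rest on the same libraries, so this separation follows in large part from the call and is no separate support. A further 26 rises and 26 falls passed although the genotypes overlapped. Within the higher genotype, the lowest library reached at least 50% of the highest in 30 rises and 26 falls, and stayed under 10% of it in 68 rises and 56 falls.

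Rises leaned on DF-c, which was the highest library in 98 of 183, against 53 for DF-b and 32 for DF-a. Of the 4379 recovered tested genes with an Ftsj1_DF library on top, DF-c was that library in 34.5%. In falls the highest library was WT-a in 46, WT-b in 45 and WT-c in 38 of 129. A single library held over 50% of all normalized reads in 55.7% of recovered rises, 58.1% of recovered falls and 28.0% of the 9346 recovered tested genes. These sets are cut at unlike abundance, since genes past the threshold were recovered up to a mean of 600 and most others up to 300. The part of library DF-c in the rises was not tested.

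Of the 407 genes, 127 are gene models without a descriptive symbol, some with larger fold changes than those named here. Among the other genes Ccl11 had the largest rise. Ccl11, the eosinophil attractant eotaxin, had 24.4, 132 and 2.44 in Ftsj1_DF kidneys and was listed at 0 in all 3 WT libraries, at least 50.8-fold higher against a floor of 3 reads over the WT group (adjusted p = 0.0167 in the authors' deposited table). Ccl7, an attractant of monocytes, had 19.2, 66.2 and 182 in Ftsj1_DF kidneys, against 0.963, 0 and 1.24 in WT kidneys (adjusted p = 6.30e-04 in the authors' deposited table). Neither chemokine overlapped between genotypes, but DF-c was the lowest Ftsj1_DF library for Ccl11 and the highest for Ccl7.

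Sfrp2 and Sfrp5 encode secreted proteins that bind Wnt ligands. Sfrp2 had 203, 358 and 8.53 in Ftsj1_DF kidneys, against 0.963, 0 and 2.48 in WT kidneys (log2 fold change 7.43 ± 1.53, adjusted p = 3.53e-04 in the authors' deposited table). Sfrp5 had 8.13, 310 and 147 in Ftsj1_DF kidneys, against 5.78, 1.94 and 1.24 in WT kidneys (5.68 ± 1.31, adjusted p = 0.00229 in the authors' deposited table). In each gene 1 Ftsj1_DF library stayed close to WT values. F2rl3, which encodes a thrombin receptor of platelets, Cerox1, Krt14, a keratin of basal epithelia, and Serpina10, a protease inhibitor of coagulation, rose with overlapping libraries.

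Among falls of genes with descriptive symbols, Igll1 and Actrt3 had the largest fold changes. Igll1, the lambda5 chain of the pre-B cell receptor, had 0.739, 0 and 0 in Ftsj1_DF kidneys, against 3.85, 643 and 414 in WT kidneys (adjusted p = 7.21e-05 in the authors' deposited table). Actrt3, an actin-related protein known from testis, had no read in any Ftsj1_DF library and 13.5, 54.4 and 280 in WT kidneys, at least 126-fold lower against a floor of 3 reads over the Ftsj1_DF group (adjusted p = 1.90e-04 in the authors' deposited table). WT-a was the lowest WT library for both genes.

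Mir130a, the gene of miR-130a, had 0, 0.919 and 3.66 in Ftsj1_DF kidneys, against 160, 1.94 and 205 in WT kidneys (log2 fold change -6.41 ± 1.68, adjusted p = 0.0138 in the authors' deposited table). WT-b overlapped the Ftsj1_DF libraries. It was the only microRNA gene past the threshold, and the tags are polyadenylated RNA counted to the gene, not the mature strands. The 2 mature strands of RefSeq (GRCm38.p6, minus strand, chr2:84741116-84741137 for the 3p strand and chr2:84741155-84741176 for the 5p strand) are shown to identify the microRNA, with the seed, bases 2 to 8, in capitals.
mmu-miR-130a-3p: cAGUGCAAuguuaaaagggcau
mmu-miR-130a-5p: gCUCUUUUcacauugugcuacu

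The most abundant genes past the threshold had smaller fold changes, apart from Cyp4a14. Vps8, a subunit of the CORVET endosomal tethering complex, had the highest mean of any gene past the threshold, 27508, and a log2 fold change of -0.98 ± 0.22 in the authors' deposited table (adjusted p = 0.00212), which corresponds to 18542 in Ftsj1_DF kidneys and 36475 in WT kidneys. Mdga2, a synaptic adhesion protein, Btk, a kinase of B cell receptor signalling, Ssr4, a subunit of the translocon-associated complex, and Pafah1b2, a catalytic subunit of platelet-activating factor acetylhydrolase, were also lower, with log2 fold changes of -1.15, -1.30, -0.58 and -1.19 in the authors' deposited table. Cyp4a14 and Pdlim5 were higher, with 3.15 and 0.87 there. Of these, Mdga2 and Pafah1b2 also fell in heart, at -1.59 (adjusted p = 0.0211) and -1.55 (adjusted p = 0.00377) in the authors' deposited heart table, from the same mice. In that table Btk had -1.70 ± 0.52, Ssr4 -0.13 ± 0.43 and Vps8 0.11 (adjusted p = 0.939). Btk, Pafah1b2 and Mdga2 had -1.73 ± 0.67, -1.13 ± 0.47 and -1.10 ± 0.59 in the authors' deposited table named liver. They had 0.43 ± 0.36, -0.02 ± 0.33 and 0.33 ± 0.40 in the one named brain.

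Gene groups were then read from 33 lists of pathways and cell types. Their 784 tested members held 11 rises and 7 falls by the authors' deposited table, 2.30% of them, close to the 2.07% of all tested genes. In 15 lists at least 1 member passed, and no list had more than 3. Among lists with no call, the median log2 fold change was 0.29 over 30 genes of cholesterol and fatty acid synthesis, -0.05 over 69 nuclear subunits of respiratory complexes, -0.22 over 71 ribosomal proteins and -0.08 over 28 decapping and RNA decay factors. It was 0.01 over 16 antigen presentation genes, 0.12 over 22 immediate early genes, 0.02 over 12 histones, -0.35 over 19 myeloid, -0.15 over 9 erythroid and -0.11 over 21 pancreatic acinar genes. Genes known to be higher in male than in female kidney had -0.37 over 13 members. The plot of the lists shows each member.

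**Figure D3:**
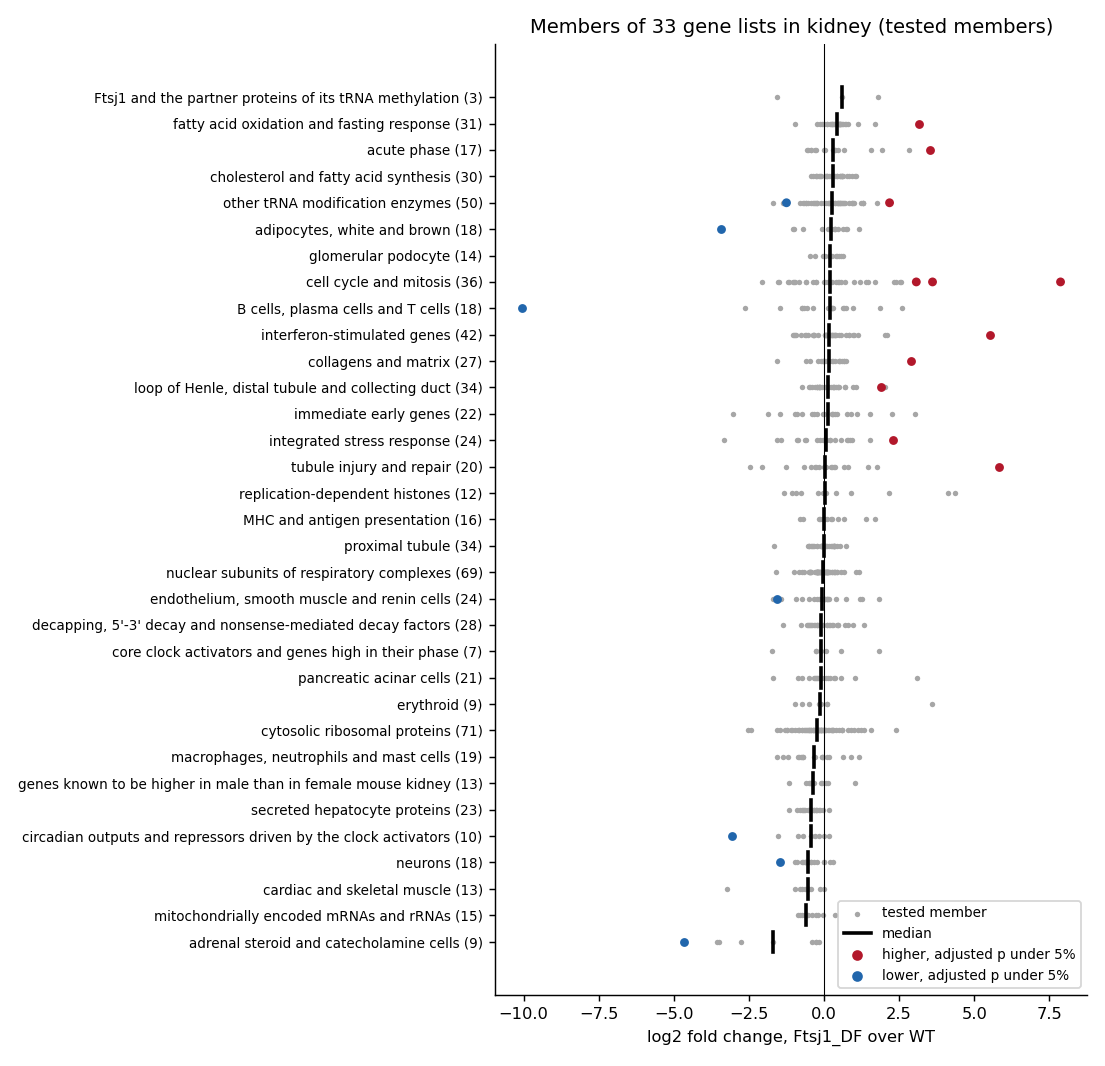
Log2 fold changes of Ftsj1_DF over WT kidney (horizontal axis) for the tested members of 33 gene lists (rows, number of tested members in brackets, ordered by median); grey points did not pass, red and blue points passed at 5%, and black bars are the list medians. The medians run from -1.69 for adrenal genes to 0.60 for Ftsj1 and its 2 partners.

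Of the partners of Ftsj1, Thada works with it at the start of the anticodon loop and Wdr6 at the wobble base. Thada had 427, 350 and 768 in Ftsj1_DF kidneys, against 97.3, 236 and 114 in WT kidneys, and the libraries did not overlap. Its log2 fold change of 1.78 ± 0.56 missed the threshold in the authors' deposited table (adjusted p = 0.0616). Wdr6 had 0.60 ± 0.40 there (adjusted p = 0.608).

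Other tRNA modification enzymes held 1 rise and 1 fall among 50 tested members, or 4.00%, against 2.07% of all tested genes. Of the 50, 31 were positive, and the median was 0.28. Both genes belong to the wybutosine pathway, which builds a bulky base next to the anticodon of phenylalanine tRNA, a tRNA that Ftsj1 also modifies. Tyw1, which makes the tricyclic core of wybutosine, had a log2 fold change of -1.25 ± 0.25 in the authors' deposited table (adjusted p = 1.90e-04), corresponding to 359 in Ftsj1_DF kidneys and 857 in WT kidneys. Tyw3, a methyltransferase of a later step, had 356, 322 and 194 in Ftsj1_DF kidneys, against 32.8, 116 and 43.4 in WT kidneys (2.18 ± 0.64, adjusted p = 0.0379 in the authors' deposited table). The other listed enzymes of the pathway did not pass, with -1.38 for Trmt5, -0.80 for Trmt12 and 0.93 for Tyw5 (adjusted p = 0.641, 0.434 and 0.861 in the authors' deposited table).

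The nephron lists held 1 call, a share near the 2.07% of all tested genes. The 34 tested proximal tubule genes held no call and had a median of -0.01, with 16 above 0, and the 14 podocyte genes held none, with a median of 0.20. At an unadjusted p under 0.05, these lists held 4 of 34 and 0 of 14 genes, against 11.9% of all tested genes. Of 34 tested genes of the loop, distal tubule and collecting duct, only Scnn1a rose. Scnn1a encodes the alpha subunit of the epithelial sodium channel, and its log2 fold change of 1.90 ± 0.43 (adjusted p = 0.00162 in the authors' deposited table) corresponds to 1789 in Ftsj1_DF kidneys and 479 in WT kidneys. The beta and gamma subunits, Scnn1b and Scnn1g, had 0.34 ± 1.75 and -0.75 ± 0.46 in the authors' deposited table and did not pass. Trpv5, the apical calcium channel of the distal tubule, had 58.4, 58.8 and 28.0 in Ftsj1_DF kidneys, against 5.78, 10.7 and 19.8 in WT kidneys, without overlap, but did not pass (adjusted p = 0.195 in the authors' deposited table).

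Vessel, injury and matrix lists held 1 call each, or 4.17%, 5.00% and 3.70% of tested members, against 2.07% of all tested genes. Kcnj8, a potassium channel subunit of mural cells, had 121, 171 and 97.5 in Ftsj1_DF kidneys, against 476, 406 and 272 in WT kidneys (log2 fold change -1.57 ± 0.43, adjusted p = 0.0194 in the authors' deposited table). Col6a1, a chain of collagen VI, had 268, 262 and 601 in Ftsj1_DF kidneys, against 13.5, 57.4 and 81.9 in WT kidneys (2.89 ± 0.76, adjusted p = 0.0141 in the authors' deposited table). Both were free of overlap between genotypes. The list medians were -0.06 over 24 vessel genes, 0.15 over 27 matrix genes and 0.04 over 20 injury genes, where Serpina10 was the call.

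Genes of fatty acid oxidation and fasting lay slightly above 0. Of 31 tested, 26 were positive and the median was 0.43, against -0.01 over all tested genes. The single call was 3.23% of tested members, against 2.07% of all tested genes. Only Cyp4a14, an omega-hydroxylase of fatty acids and a target of the nuclear receptor PPAR-alpha, rose, with a log2 fold change of 3.15 ± 0.89 (adjusted p = 0.0264 in the authors' deposited table), corresponding to 8137 in Ftsj1_DF kidneys and 918 in WT kidneys. Cyp4a10 had 1.12 ± 0.45 (adjusted p = 0.216) in the authors' deposited table. Cyp4a genes are close copies of each other, so tags of Cyp4a14 may in part stem from its relatives. Cyp4a14 also rose in the brain-named table, with a log2 fold change of 1.95 (the authors' deposited table, adjusted p = 1.23e-04), the table in which the hepatocyte gene Alb is highest.

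Clock outputs lay below 0. Of 10 tested genes that the clock activators drive, 2 were positive, and the median was -0.43. Dbp, a transcription factor whose RNA cycles strongly over the day, had 47.3, 73.6 and 39.0 in Ftsj1_DF kidneys, against 764, 189 and 393 in WT kidneys, with no overlap (log2 fold change -3.07 ± 0.65, adjusted p = 5.18e-04 in the authors' deposited table). The other 9 did not pass, and the next in size were Bhlhe41, Nr1d1 and Tef, at -1.52, -0.88 and -0.70 in the authors' deposited table. Among 7 tested clock activators and genes of their phase none passed. Arntl, the partner of Clock, had 82.1, 83.7 and 92.6 in Ftsj1_DF kidneys, against 371, 406 and 86.8 in WT kidneys. Arntl thus overlapped through WT-c (adjusted p = 0.173 in the authors' deposited table).

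Clock activators bind the E-box, CACGTG. Promoters, taken as 250 bases before to 50 after the gene start in RefSeq GRCm38.p6, were available for 11 of the 14 clock outputs, and 4 held an E-box on either strand (36.4%), against 8.09% of 27025 genes. The promoter window of Dbp held no such letters. The E-boxes of the 3 genes with a fold change, all negative and none past the threshold, are shown in capitals with 20 bases on each side, on the strand of the gene. Tef lies on the plus strand at chr15:81802526-81802571, Per1 on the plus strand at chr11:69098763-69098808 and Bhlhe41 on the minus strand at chr6:145865548-145865593.
Tef: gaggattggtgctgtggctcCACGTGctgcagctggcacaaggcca
Per1: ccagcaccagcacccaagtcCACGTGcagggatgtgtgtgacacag
Bhlhe41: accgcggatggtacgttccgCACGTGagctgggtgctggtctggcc
The 3 motifs start 127, 166 and 153 bases before the gene start.

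Interferon-stimulated genes held a single call, 2.38% of those tested, close to the 2.07% of all tested genes. Usp18, the protease that removes ISG15 from proteins and restrains interferon receptor signalling, had 278, 152 and 642 in Ftsj1_DF kidneys, against 10.6, 3.89 and 8.68 in WT kidneys (log2 fold change 5.53 ± 0.78, adjusted p = 3.15e-09 in the authors' deposited table). Isg15 itself had 0.41 ± 0.45 (adjusted p = 0.840), Ifit1 0.32 ± 0.89 (adjusted p = 0.961) and Irf7 0.37 ± 0.35 (adjusted p = 0.792) in the authors' deposited table. The list had 42 tested members, 29 of them positive, and a median of 0.17. The interferon-stimulated response element, searched on both strands as GAAANNGAAA, was found in 21 of 33 promoters of the list (63.6%) and in 3.99% of all promoters; Usp18 was not among the 33.

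Cell cycle genes held 3 rises among 36 tested members, or 8.33%, against 2.07% called over all tested genes. Of the 36, 22 were positive, and the median was 0.20. Kif11, a mitotic kinesin, had 136, 225 and 111 in Ftsj1_DF kidneys, against 11.6, 27.2 and 17.4 in WT kidneys (log2 fold change 3.07 ± 0.60, adjusted p = 1.22e-04 in the authors' deposited table). Bub1b, a kinase of the spindle checkpoint, had 509, 26.7 and 201 in Ftsj1_DF kidneys, against 21.2, 14.6 and 24.8 in WT kidneys (3.61 ± 0.99, adjusted p = 0.0216 in the authors' deposited table). Tcf19, a factor of the G1/S transition, had 431 in DF-c and 26.6 or less in DF-a and DF-b, against 1.93, 0 and 0 in WT kidneys (7.87 ± 1.87, adjusted p = 0.00373 in the authors' deposited table). Kif11 was above all WT libraries in each Ftsj1_DF library, while Tcf19 rested mainly on DF-c. The proliferation markers Mki67 and Top2a had -1.17 ± 0.93 and -0.99 ± 0.53 in the authors' deposited table and did not pass (adjusted p = 0.720 and 0.466).

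In the stress and acute phase lists, Stc2 and Serpina3n rose, or 4.17% and 5.88% of tested members, against 2.07% of all tested genes. Stc2, a secreted glycoprotein induced by endoplasmic reticulum stress, had a log2 fold change of 2.28 ± 0.48 (adjusted p = 5.79e-04 in the authors' deposited table), corresponding to 1085 in Ftsj1_DF kidneys and 223 in WT kidneys. Atf4, the central factor of the integrated stress response, had 0.08 ± 0.21 in the authors' deposited table, and the median of 24 tested members was 0.07. Serpina3n, an inhibitor of serine proteases, had 25.9, 78.1 and 224 in Ftsj1_DF kidneys, against 9.63, 7.78 and 11.2 in WT kidneys (3.52 ± 0.93, adjusted p = 0.0151 in the authors' deposited table). Serpina3n has close paralogs, between which tags may be split. The acute phase median was 0.31, with 11 of 17 members positive.

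The lists of hepatocyte, muscle, neuron and mitochondrially encoded genes had negative medians with few or no calls. Hepatocyte proteins were positive in 1 of 23 tested genes with a median of -0.42, muscle genes in 1 of 13 with -0.55 and neuron genes in 3 of 18 with -0.53. The 15 mitochondrially encoded mRNAs and rRNAs, which are made without a cap, were positive in 1, with a median of -0.60. Within these 4 lists only Gad2, the neuronal enzyme of GABA synthesis, fell, with 53.2, 51.5 and 48.7 in Ftsj1_DF kidneys, against 118, 163 and 148 in WT kidneys (log2 fold change -1.48 ± 0.37, adjusted p = 0.00635 in the authors' deposited table). Adrb3, the beta-3 adrenergic receptor of fat cells, had 62.8, 87.3 and 15.8 in Ftsj1_DF kidneys, against 705, 331 and 773 in WT kidneys (-3.44 ± 0.71, adjusted p = 3.88e-04 in the authors' deposited table). The fat cell list had a median of 0.24, and 13 of 18 tested members were positive. Its other genes did not pass; Adipoq had 0.46 ± 0.63, Ucp1 -0.71 ± 0.32, Plin4 -1.03 ± 0.54 and Plin1 -1.01 ± 1.08 in the authors' deposited table. Adrb3 and Ucp1, both negative, were the 2 of 18 tested members with an unadjusted p under 0.05, a share near the 11.9% of all tested genes. The single calls of the neuron and fat cell lists were each 5.56% of tested members, against 2.07% of all tested genes.

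The adrenal list stood apart, and 1 library carried it. Star, which brings cholesterol into mitochondria for steroid synthesis, lay between 6.09 and 36.8 in Ftsj1_DF kidneys, against 56.8, 894 and 629 in WT kidneys (log2 fold change -4.65 ± 1.03, adjusted p = 0.00135 in the authors' deposited table). Star was the only call among 9 tested members, or 11.1%, against 2.07% of all tested genes. All 9 were negative, with a median of -1.69. The enzymes that define steroid cells had no p in the authors' deposited table. Cyp21a1 had 3.70, 1.84 and 0 in Ftsj1_DF kidneys, against 12.5, 3432 and 3.72 in WT kidneys. Cyp11a1 averaged 6.87 ± 3.78 (SD, n = 3) in Ftsj1_DF kidneys, against single values of 6.74, 1649 and 3.72 in WT kidneys. Both were high in WT-b and near background in the other 5 libraries.

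The catecholamine enzymes Dbh and Pnmt followed, with 274 and 361 in WT-b and at most 7.31 in any other library. Summed over the 11 recovered adrenal genes, the libraries held 172, 326 and 183 in Ftsj1_DF kidneys, against 537, 9763 and 776 in WT kidneys. The median over these genes of the log2 ratio of group means, with 1 added to each mean, was -3.55 with all libraries and -0.10 without WT-b. Star kept 629 in WT-c, where Cyp11a1 and Cyp21a1 were both at 3.72. The highest library was WT-b in 34.9% of the 129 recovered falls, WT-a in 35.7% and WT-c in 29.5%. These shares do not measure the part of WT-b in the 170 falls, which was not tested.

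**Figure D4:**
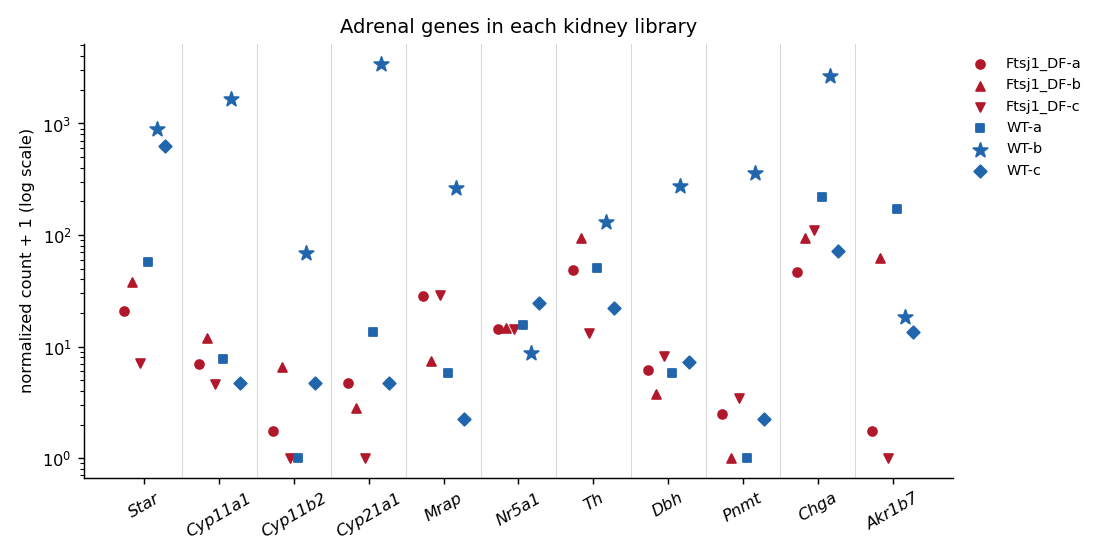
Recovered normalized counts plus 1 (vertical axis, log scale) of 11 adrenal genes in the 3 Ftsj1_DF libraries (red) and the 3 WT libraries (blue), 1 column per gene. WT-b (star) is highest for 9 of the 11; Nr5a1 and Akr1b7 are the exceptions, and Star is also high in WT-c.

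A further 1009 genes carry, in the authors' deposited table, a mean and a fold change without any p, 883 of them with a mean of at least 20. This is the mark that DESeq2 leaves on genes with an outlying count. A high share of reads in 1 library is thus in large part built into this set. Tested genes neither called nor listed were recovered only up to a mean of 300, and genes without p up to 600. The recovered values of 963 of these genes had a median of 87.4% of all normalized reads in 1 library, against 38.8% over tested genes. That library held over 80% in 65.7% of them. It was an Ftsj1_DF library (DF-a, DF-b or DF-c) in 15.2%, 16.4% and 16.3%, and a WT library (WT-a, WT-b or WT-c) in 18.1%, 18.1% and 16.0%. No library stood out. Of 1009 fold changes, 484 were above 0 and 525 below.

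**Figure D5:**
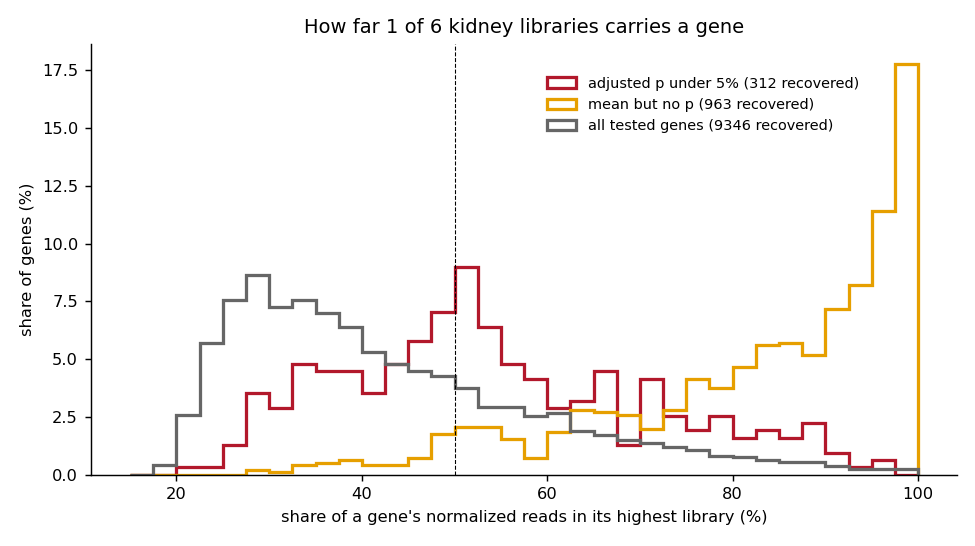
Share of a gene's normalized reads held by its highest library (horizontal axis, percent) for 312 genes past the threshold (red), 963 genes with a mean and no p (orange) and 9346 tested genes (grey), as a percentage of each set (vertical axis). The dashed line marks 50%; the medians are 87.4% without p and 38.8% over tested genes.

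The kidney changes were set against the other organs by a z test on the difference of the log2 fold changes, adjusted over all genes and the 4 other tables together. Differences passed for 118 of 17874 genes against heart (0.660%), 175 against the brain-named table (1.05%), 143 against the liver-named table (0.769%) and 94 against spleen (0.508%). The brain-named and liver-named tables are called by their deposited names, since Alb is highest in the brain-named and Snap25 in the liver-named one. Heart and both of these tables came from the same 6 mice as kidney, so the test treats as independent what shares animals. Of 265 genes past the threshold in kidney with a value in all 4 other tables, 153 differed from at least 1 table and 7 from all 4. These genes were chosen by their kidney fold change, which the difference uses again. Such differences are thus in large part built in, and the same counts over all genes were not made.

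Those 7 were 6 rises, Amigo2, Cdr2l, Entpd2, Gpatch3, Itgb7 and Sh3gl1, and 1 fall, Rab7b, a late endosomal GTPase. Rab7b was named after its values were seen. Entpd2, an ectonucleotidase that hydrolyses ATP outside cells, had 358, 287 and 657 in Ftsj1_DF kidneys, against 38.5, 11.7 and 39.7 in WT kidneys. Its log2 fold change of 3.86 ± 0.64 in the authors' deposited kidney table exceeded that in the other tables by 3.02 ± 0.84 (heart) to 5.27 ± 0.81 (liver-named). Itgb7, an integrin chain of gut-homing lymphocytes, had 101, 455 and 607 in Ftsj1_DF kidneys, against 24.1, 19.4 and 12.4 in WT kidneys. Rab7b had 7.39, 18.4 and 18.3 in Ftsj1_DF kidneys, against 39.5, 825 and 631 in WT kidneys.

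For other leading genes the difference held against some tables. Zbtb8a differed from the brain-named, liver-named and spleen tables but not from heart, where its log2 fold change was 2.08 in the authors' deposited table (difference 3.27 ± 1.22, adjusted p = 0.241). Usp18 differed from heart, brain-named and liver-named, and its difference from spleen was 4.63 ± 1.35 (adjusted p = 0.0687). Tyw1 differed only from heart, by -1.84 ± 0.48 (adjusted p = 0.0279). Scnn1a differed from the brain-named table by 2.46 ± 0.65 (adjusted p = 0.0299) and from spleen by 4.83 ± 1.02 (adjusted p = 0.00188). The Vps8 and Dbp differences did not pass in any table where they could be computed, with smallest adjusted p of 0.116 and 0.0725.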

How the data were processed

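Uncapped poly(A) RNA from 5 µg of total RNA per kidney was turned into libraries of short 5' tags, per the labels' protocols. Per the submitters' processing notes, the genome build was GRCm39, and featureCounts, Subread 2.0.3 and DESeq2 were used. The strand setting and model are not given in the sources used here. Without the strand setting, overlapping and antisense genes cannot be told apart. A refit with genotype as its only term gave the deposited log2 fold change for 99.3% of genes whose reads had 1 solution. The deposited fit of these genes thus held no term for the brother sets. The deposited mean is a signal, the authors' normalized count averaged over 6 libraries. The deposited fold change and standard error are log2 values, and the deposited statistic is a score. The deposited p-value equals the 2-sided normal p of that score for all 31949 genes with one, and the deposited adjusted p is Benjamini-Hochberg over the 19630 tested genes. The row without a name (2.54e-07% of the summed means) was left out. Genes are called at a false discovery rate of 5% of the authors' DESeq2 fit.

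Reads per library were recovered up to a mean of 300 (600 for genes called, listed or without p), with a refit within 1e-04 of the deposited log2 fold change and the next solution at least 0.001 away; 18687 genes had 1 solution, and the refit gave the deposited value for 99.3% of them. Total depth per library is not known; the size factors give it in relative terms. The recovery and the difference test were checked on simulated data. The difference test was simulated with independent errors, so that check does not cover organs that share mice. The p-values rest on the spread between mice of the same genotype, with brothers treated as unrelated. The members and lists were chosen with earlier results of these data known. Named genes are Ftsj1, the 12 largest rises and 12 largest falls among genes that have descriptive symbols (neither gene models nor pseudogenes) and means of 20 or more, the 10 smallest adjusted p, the 8 highest means, up to 4 called members per list or 3 others, 6 without p, and up to 5 differences per table; not all are printed, and further list members were named after their values were seen. Symbols and promoters came from RefSeq GRCm38.p6, without gene coordinates of that build. Python 3.11.15, matplotlib 3.10.9, scipy 1.17.1, pandas 2.3.3 and numpy 2.4.6 were used. Results for some genes are not reported here.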

Additional observations from a re-analysis of the deposited data

Results flagged for a closer look

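For 20 results the kidney fold change differed from that in another organ, each being among the 5 smallest adjusted p of the z test for that organ. Values are differences of log2 fold changes, kidney minus the other table, with adjusted p over all genes and the 4 tables. Against heart, Gpatch3, a G-patch protein, differed by 10.88 ± 1.60 (adjusted p = 2.57e-07), Amigo2 by 5.16 ± 0.85 (adjusted p = 1.12e-05) and Wnk2 by 2.72 ± 0.49 (adjusted p = 1.32e-04). The pseudogenes and gene models there were Gm13733 at -10.00 ± 1.77 (adjusted p = 8.13e-05) and Cbx3-ps7 at 10.67 ± 1.93 (adjusted p = 1.32e-04). Gpatch3 had 63.6, 508 and 372 in Ftsj1_DF kidneys, against 1.93, 18.5 and 3.72 in WT kidneys, and its heart log2 fold change was -5.60 in the authors' deposited table.

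Against the brain-named table, Zbtb8a differed by 5.19 ± 0.67 (adjusted p = 4.21e-10), Amigo2 by 5.08 ± 0.76 (adjusted p = 3.72e-07), Usp18 by 5.23 ± 0.87 (adjusted p = 1.35e-05), Sh3gl1, an endophilin, by 4.71 ± 0.81 (adjusted p = 4.28e-05) and Entpd2 by 4.50 ± 0.78 (adjusted p = 4.91e-05). Against the liver-named table, Zbtb8a differed by 5.62 ± 0.67 (adjusted p = 2.34e-12), Entpd2 by 5.27 ± 0.81 (adjusted p = 1.13e-06), Amigo2 by 5.03 ± 0.81 (adjusted p = 7.24e-06), Itgb7 by 5.75 ± 1.02 (adjusted p = 8.13e-05) and Sfrp2 by 9.60 ± 1.71 (adjusted p = 8.88e-05). Zbtb8a, Amigo2 and Entpd2 stood among the 5 in both tables.

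Against spleen, Unc5b, a netrin receptor, differed by 4.39 ± 0.81 (adjusted p = 2.10e-04), Ms4a7, a membrane protein of macrophages, by 4.73 ± 0.89 (adjusted p = 2.91e-04) and Cdr2l by 6.46 ± 1.24 (adjusted p = 3.73e-04). Gm40787 at -13.50 ± 2.22 (adjusted p = 1.12e-05) and Ppp1r14a, an inhibitor of myosin phosphatase, at -7.90 ± 1.40 (adjusted p = 8.13e-05) ran the other way. Unc5b was even over libraries, with 242, 225 and 273 in Ftsj1_DF kidneys, against 36.6, 60.3 and 45.9 in WT kidneys. Ppp1r14a had 5.91, 4.60 and 2.44 in Ftsj1_DF kidneys, against 129, 11.7 and 169 in WT kidneys.

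Outside the tested genes, 883 genes with a mean of at least 20 carry a fold change and no p in the authors' deposited table, Cyp21a1 and Cyp11a1 among them.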

How the results depend on the processing

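Of the 407 genes past the threshold, 184 passed at a false discovery rate of 1% and 169 after the statistic was divided by its robust spread of 1.15. The 237 rises became 100 and 92 under these settings, and the 170 falls became 84 and 77, or 261 at 10%. The 18 list members past the threshold became 11 with the robust spread. With the difference statistic divided by its robust spread of 1.12, the differences that passed numbered 38 against heart, 42 against the brain-named, 42 against the liver-named and 27 against the spleen table; at 10% they numbered 189, 273, 236 and 163. Under the other settings, adjusting over every gene with a p, requiring a mean of at least 20 or an absolute log2 change of at least 1, these counts stayed within 1.5 times. The adrenal median log2 ratio of -3.55 was -0.10 without WT-b. Leaving out each library kept the direction in all 312 recovered genes, which the calls on the same libraries fix in large part. Of 99 list medians under other settings, 94 kept their sign and moved by up to 0.1; the others were MHC (-0.01), immediate early (0.25), acute phase (0.17), histone (-0.03) and adrenal (-3.51) genes. No paired analysis was possible because the recovered libraries cannot be tied to mice, although both brother sets hold both genotypes. Refits of the whole table without a library were not run, since reads of abundant genes are unknown. With 3 libraries a group, genes of low count had wide errors, and the median standard error of the tested genes was 0.67.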

Other observations

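Mitochondrial tRNA genes were looked at after their values were seen. Of 22, 19 were tested, 16 had negative log2 fold changes, and the median was -0.90 in the authors' deposited table, against -0.01 over all tested genes. Only mt-Tn, the asparagine tRNA, fell, with 106, 180 and 141 in Ftsj1_DF kidneys, against 458, 605 and 418 in WT kidneys (log2 fold change -1.79 ± 0.37, DESeq2 adjusted p = 4.70e-04 in the authors' deposited table). This call was 1 of 19 tested genes, against 2.07% of all tested genes. A further 4 had an unadjusted p under 0.05, and none of the 3 positive genes did. With mt-Tn these were 5 of the 19, against 11.9% of all tested genes. Mitochondrial tRNAs carry no cap and are cut out of long transcripts.

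Genes without a p were more often noncoding. Of 799 with a RefSeq biotype, 24.8% were long noncoding RNAs, against 8.13% of tested genes, and 57.3% were protein coding, against 80.5%. The genes past the threshold were 77.5% protein coding, of 373 with a biotype.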
